A study of Ovis aries with 3 samples.

Results

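The 7 genes *QDPR*, *APBB1IP*, *TSKU*, *SLPI*, *PON3*, *TRIM10* and *FETUB* were followed across cell groups of sheep embryos, out of 26478 genes in the feature table, where each is listed once. They were picked by name because their levels differed between the day 19 embryos, so the day 19 values are a description and carry no test. The question was whether each difference was present in every cell group or followed the numbers of cells of each kind, with a day 16 library beside them.

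Whole embryos were dissociated with collagenase, red blood cells were lysed, and the remaining cells were captured in droplets for 3′ RNA counting. E19 HSTS is 1 embryo of the Hulunbuir short-tailed sheep at day 19, E19 HS is 1 embryo of the Hu sheep at day 19, and E16 HS is the Hu sheep at day 16. In the study's genotyping, the HSTS ram and ewes carried a missense variant of *T* on both copies and the HS animals carried the wild-type allele, and the labels name no treatment. The label of E16 HS names 1 embryo while the series design names 3, and the labels do not settle whether cells were pooled. With 1 library per group, breed, embryo and library cannot be told apart, no test is possible, and each interval below is at the 95% level and covers counting error only.

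The barcodes kept had 200 to 6000 genes, 1000 to 30000 unique molecular identifiers (UMIs, 1 per captured RNA molecule) and at most 10% mitochondrial UMIs. E19 HSTS gave 9618 such cells, E19 HS gave 10629 and E16 HS gave 11329, with 88733467 to 113213654 UMIs per library and medians of 8675, 6900 and 9046 UMIs per cell. Levels are given as UMIs per 1000000 UMIs (CPM). Values given without a library name follow the order E19 HSTS, E19 HS, E16 HS. The E19 ratio is the level of E19 HSTS over that of E19 HS, and the E16 ratio is the level of E16 HS over that of E19 HS. The libraries shared 38 to 42 barcodes per pair. Clusters were named after fixed marker lists and give 15 cell groups, each "-like" name meaning resemblance. A group was read where both E19 libraries held at least 50 of its cells and the gene had at least 20 UMIs in them together, and 11 groups had enough cells. The blood progenitor-like group, with *AHSP*, *ALAS2* and *HEMGN* among its leading genes, held 27.4%, 13.4% and 17.7% of the cells and 45.6%, 28.8% and 24.5% of the UMIs. Most of its E19 cells lay in a pair of clusters led by metallothionein genes, while 98.6% of its E16 cells were in another cluster, led by *SRGN*. When the E19 libraries were clustered alone, their blood progenitor-like cells partly split by library. One cluster held 1265 and 715 cells of E19 HSTS and E19 HS, another 1364 and 33, and the last 3 and 673, so ratios within the blood group compare cells that lay partly in different clusters, and values from the shared cluster, added after seeing the data, are given beside them.

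The genes have separate roles. *QDPR* encodes dihydropteridine reductase, which recycles tetrahydrobiopterin, the cofactor of the aromatic amino acid hydroxylases, and *PON3* encodes a paraoxonase, a lactone-hydrolysing enzyme known mainly from liver and plasma lipoproteins. *APBB1IP* encodes RIAM, an adaptor that links the GTPase RAP1 to talin and integrins in blood cells, and *TRIM10* encodes a tripartite motif protein known from erythroid cells. The other members are secreted. *TSKU* encodes tsukushi, a small leucine-rich proteoglycan that binds BMP, WNT and other ligands, *SLPI* an inhibitor of serine proteases of leukocytes, and *FETUB* fetuin-B, a liver-made cystatin family protein that inhibits the zona pellucida protease ovastacin.

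**Figure D1:**
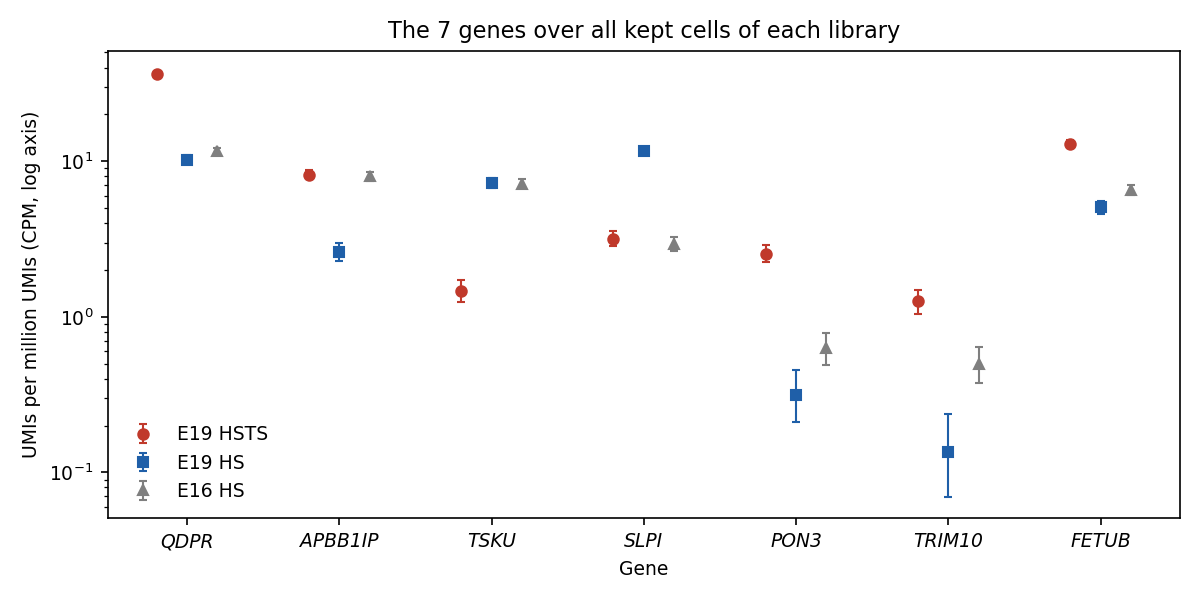
Level of each of the 7 genes over all kept cells, in UMIs per 1000000 UMIs on a log axis, with bars for the 95% counting interval, 1 library per group. The E16 HS point lies near E19 HS for *QDPR* and *TSKU*, near E19 HSTS for *APBB1IP* and *SLPI*, and between the E19 points for *PON3*, *TRIM10* and *FETUB*.

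Over all kept cells, 5 of the 7 genes were higher in E19 HSTS and 2 were higher in E19 HS. Of the 13984 genes with at least 20 UMIs in both E19 libraries together, 2.4% were at least 2-fold higher in E19 HSTS and 3.3% at least 2-fold higher in E19 HS. All 7 members passed that minimum, and the choice of the members used this contrast, so nothing is read from their count. The day 16 library divided them. Of the 14127 genes with enough UMIs, 8.06% were at least 2-fold higher in E16 HS than in E19 HS and 7.89% were at least 2-fold lower. In the plot of levels by library, E16 HS stood with E19 HS for *QDPR* and *TSKU*, and with E19 HSTS for *APBB1IP* and *SLPI*. This holds for whole libraries and was not kept in every cell group. The E16 ratio of *TSKU* was 0.622 (0.397 to 0.944) in spinal cord-like and 1.29 (1.00 to 1.66) in blood progenitor-like cells. In blood progenitor-like cells *APBB1IP* had an E19 ratio of 4.02 and an E16 ratio of 6.84 (5.52 to 8.54).

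*QDPR* (ENSOARG00020006022) was measured at 36.3 CPM in E19 HSTS (3612 UMIs), 10.2 CPM in E19 HS (908 UMIs) and 11.6 CPM in E16 HS (1314 UMIs). E19 HSTS stood alone, and the HS libraries of both days lay close together. The E19 ratio was 3.54 (3.29 to 3.82), and the E16 ratio was 1.13 (1.04 to 1.24). No cell held more than 6, 3 or 4 of its UMIs, so the level was spread over many cells. With every cell thinned to 3000 UMIs and shallower cells left out (1106, 1345 and 1317 cells), 11.8% of cells in E19 HSTS held a *QDPR* UMI, against 3.18% in E19 HS and 3.57% in E16 HS. Without thinning the shares were 27.3%, 7.88% and 10.4%. *QDPR* UMIs occurred in all named groups, so no group served as a blank for it.

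The *QDPR* difference was present in each cell group read. All 11 groups were at least 2-fold higher in E19 HSTS. The genes that much higher there were 3.58% of those read in somite-like, 3.86% in spinal cord-like, 4.92% in blood progenitor-like, 4.26% in gut-like, 3.59% in urogenital-like and 3.78% in early neuron-like cells. The same shares were 3.03% in haematoendothelial progenitor-like, 5.86% in neural crest-like, 5.58% in cardiomyocyte-like, 6.2% in extraembryonic endoderm-like and 5.57% in unnamed cells led by *H1-1* and other cell division genes. These unnamed cells were shallow, with medians of 1760.5 and 1506 UMIs in the E19 libraries. They had 0.0781% and 0.0938% mitochondrial UMIs, and no marker list named them. Among the 5598 genes read in at least 8 groups, 0.0893% (5 genes) were that much higher in E19 HSTS in every group read, and 0.0715% in E19 HS. The ratio ran from 2.05 (1.35 to 3.17) in extraembryonic endoderm-like cells to 5.98 (3.05 to 13.0) in early neuron-like cells. In somite-like cells, the group with the most *QDPR* UMIs in E19 HSTS, the level was 46.8 CPM in E19 HSTS, 10.2 CPM in E19 HS and 12.8 CPM in E16 HS. Spinal cord-like cells had 62.4, 14.2 and 16.6 CPM in the same order. Among the groups read, blood progenitor-like cells had the lowest level in both E19 libraries, with 11.5 CPM in E19 HSTS, 2.07 CPM in E19 HS and 3.32 CPM in E16 HS, yet a ratio of 5.55 (4.18 to 7.51). In the blood cluster shared by the E19 libraries, *QDPR* had 13.0 and 2.34 CPM, a ratio of 5.55 (3.89 to 8.15). Urogenital-like cells had the highest level in E19 HSTS among the groups read, at 88.8 CPM, against 22.5 CPM in E19 HS and 21.3 CPM in E16 HS.

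The difference was not of one size, but most intervals overlapped. Extraembryonic endoderm-like cells lay lowest, and their interval of 1.35 to 3.17 did not reach that of somite-like cells, 3.99 to 5.27. Mesenchyme-like cells, with 42 and 70 cells and therefore not read, had 5 and 9 *QDPR* UMIs in the E19 libraries, a ratio of 0.896 (0.236 to 2.98). The size of this group depended on the clustering. With the E19 libraries clustered alone, a mesenchyme-like cluster held 1152 and 1845 cells, and at a finer resolution one held 611 and 904. The larger somite-like cluster, led by *POSTN*, had 2 somite markers among its 10 top genes and 2 of another list, so mesenchyme may lie within that group. The median gene was also a little higher in E19 HSTS inside several groups, by 0.24 on the log2 scale in somite-like, 0.23 in spinal cord-like and 0.21 in gut-like cells, against -0.05 over all kept cells. These shifts are small beside the *QDPR* ratios.

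Since blood progenitor-like cells had little *QDPR* and were more numerous in E19 HSTS, their share worked against the difference. With both E19 libraries weighted by the share of UMIs that each group had in E19 HS, called equal shares below, the E19 ratio was 4.26 (3.96 to 4.58). Of the 26.0 CPM by which E19 HSTS exceeded E19 HS, levels within groups gave 30.6 CPM and the shares of the groups -4.55 CPM. Leaving out the blood progenitor-like cells gave a ratio of 4.21.

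Among the other genes of tetrahydrobiopterin metabolism with enough UMIs to be read, *TH* alone was past 2-fold. Of 15 listed genes, which include the synthesis enzyme *GCH1* and the hydroxylases, 11 had enough UMIs, 1 of these was at least 2-fold higher in E19 HSTS and 0 in E19 HS, with a median log2 ratio of -0.14. *GCH1* had 3.29, 3.64 and 4.95 CPM, an E19 ratio of 0.905 (0.774 to 1.06). The gene past 2-fold was *TH*, tyrosine hydroxylase, which uses the cofactor to make L-DOPA. It had 314, 3 and 160 UMIs, and it is singled out after its values were seen. Nearly all of these UMIs lay in blood progenitor-like cells, with 305, 2 and 151 UMIs or 6.72, 0.0783 and 5.44 CPM. The ratio there was 85.9 with a counting interval of 23.6 to 713. The blood cluster shared by the E19 libraries had 151 and 0 *TH* UMIs. For *TH*, then, E16 HS stood with E19 HSTS, unlike for *QDPR*.

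*PON3* (ENSOARG00020020726), the other enzyme, was measured at 2.55 CPM in E19 HSTS (254 UMIs), 0.316 CPM in E19 HS (28 UMIs) and 0.627 CPM in E16 HS (71 UMIs). E19 HSTS was high, and E16 HS lay above E19 HS. The E19 ratio was 8.08 (5.46 to 12.4) and the E16 ratio 1.99 (1.27 to 3.20). Most UMIs lay in blood progenitor-like cells: 237 of 254, 15 of 28 and 62 of 71. This was the 1 group in which *PON3* could be read, and its level there was 5.22 CPM in E19 HSTS, 0.587 CPM in E19 HS and 2.23 CPM in E16 HS. The ratio within the group was 8.90 (5.29 to 16.2), where 4.92% of 9160 genes were at least 2-fold higher in E19 HSTS. In the shared blood cluster *PON3* had 126 and 11 UMIs, a ratio of 6.57 (3.55 to 13.5).

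The share of blood progenitor-like cells with a *PON3* UMI was 8.24% (217 of 2635), 0.985% (14 of 1421) and 2.84% (57 of 2005). Somite-like cells, taken as a group that should have little of it, held one in 0.138% and 0.0549% of cells of the E19 libraries. Their median depth was 7309 and 6323 UMIs, against 17492 and 17569 UMIs in the blood progenitor-like cells, so the E19 libraries had nearly the same depth within the blood group. After thinning, the blood shares were 1.43%, 0% (0 of 1410 cells, exact upper limit 0.261%) and 0.884%. No cell held more than 3 *PON3* UMIs in any library. At a finer resolution, 107 and 9 UMIs fell in blood cluster 7 and 70 and 4 in blood cluster 10 for the E19 libraries, with ratios of 6.74 (3.42 to 15.1) and 9.48 (3.54 to 35.7). Blood cluster 17 had 34 UMIs for E19 HSTS and 0 among 199 cells of E19 HS.

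Both levels and shares entered the *PON3* difference over the libraries. At equal shares the ratio was 5.36 (3.62 to 7.92), and 78.8% of the difference in CPM lay within groups and 21.2% in their shares. Without the blood progenitor-like cells the ratio was 1.52. Cardiomyocyte-like cells, which held few UMIs, were at 6.51 CPM (7 UMIs), 4.82 CPM (4 UMIs) and 5.97 CPM (1 UMI), on too few UMIs to be read. The relatives on the same chromosome were at other levels: *PON1* had 0.321, 0.259 and 0.238 CPM, and *PON2* 9.30, 8.71 and 13.1 CPM. Of 7 paraoxonase and lipoprotein genes read, 0 were past 2-fold in either direction, with a median log2 ratio of -0.03.

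*APBB1IP* (ENSOARG00020010637) was measured at 8.20 CPM in E19 HSTS (817 UMIs), 2.61 CPM in E19 HS (232 UMIs) and 7.98 CPM in E16 HS (904 UMIs). E19 HS stood alone as the low library. The E19 ratio was 3.14 (2.71 to 3.65) and the E16 ratio 3.05 (2.64 to 3.54). Blood progenitor-like cells held 692, 97 and 720 of the UMIs, at 15.3, 3.80 and 25.9 CPM. The ratio within them was 4.02 (3.25 to 5.02). In the shared blood cluster the levels were 13.4 and 3.72 CPM, with an interval of the ratio of 2.70 to 4.89, and in the cluster mostly of E19 HSTS it was 1.47 (0.570 to 5.44), on 353 and 4 UMIs. All 4 blood clusters with at least 50 cells in each E19 library at the finer resolution were above 2-fold, from 2.48 (1.27 to 5.33) in cluster 21 to 5.28 (3.50 to 8.33) in cluster 10.

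Myeloid-like cells, led by *TYROBP*, *S100A8* and *C1QB*, had far more *APBB1IP* per UMI but were few, at 20, 46 and 14 cells, and were not read. Their levels were 345 CPM in E19 HSTS, 250 CPM in E19 HS and 463 CPM in E16 HS. The E19 ratio there was 1.38 (0.959 to 1.97), an interval that contains 1 and lies below that of the blood progenitor-like cells. These cells held 36.2% of all *APBB1IP* UMIs in E19 HS but 6.49% in E19 HSTS. The share of cells with an *APBB1IP* UMI was 70.0% and 65.2% in the myeloid-like cells of the E19 libraries, and 21.6% and 6.12% in the blood progenitor-like cells. Spinal cord-like cells, which should lack it, had 0.178% and 0.163% at median depths of 7301 and 6797 UMIs. The corresponding depths were 6140 and 6404 UMIs for the myeloid-like and 17492 and 17569 UMIs for the blood progenitor-like cells.

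Outside the blood progenitor-like cells, the pooled E19 ratio of *APBB1IP* was 1.08. That value also depends on group shares, because the myeloid-like cells, rich in this gene, were a larger part of E19 HS. They made up 0.379% of its kept UMIs, against 0.154% for E19 HSTS. The pooled ratio therefore does not show that levels within these groups were equal. In somite-like cells, the other group read, the level was 2.07 CPM in E19 HSTS (47 UMIs), 1.04 CPM in E19 HS (26 UMIs) and 1.88 CPM in E16 HS, a ratio of 1.99 (1.21 to 3.35). The erythroid gene *ALAS2* moved the same way in these cells, with 98 and 29 UMIs, and its part in that ratio was not tested. At equal shares the ratio was 2.53 (2.17 to 2.94), and with the shares of E19 HSTS as weights it was 3.23. Within-group levels gave 86.4% of the difference. Of 15 genes of RAP1 and integrin activation with enough UMIs, 0 were at least 2-fold higher in E19 HSTS and 1 in E19 HS, with a median log2 ratio of -0.14. That gene was *FYB1*, an adaptor of leukocytes, with 36, 86 and 52 UMIs and a ratio of 0.373 (0.245 to 0.556). In myeloid-like cells *FYB1* had 150 CPM in E19 HSTS and 208 CPM in E19 HS, with a ratio of 0.718 (0.428 to 1.16).

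*TRIM10* (ENSOARG00020014219) was the rarest of the 7 in E19 HS, at 1.26 CPM in E19 HSTS (125 UMIs), 0.135 CPM in E19 HS (12 UMIs) and 0.495 CPM in E16 HS (56 UMIs). E19 HS was the low library, and the 3 intervals did not overlap. The E19 ratio was 9.28 (5.13 to 18.4) and the E16 ratio 3.66. Each of the E19 UMIs lay in blood progenitor-like cells, and 54 of 56 did in E16 HS. Within that group the level was 2.76 CPM in E19 HSTS, 0.470 CPM in E19 HS and 1.95 CPM in E16 HS. The E19 ratio there was 5.87 (3.24 to 11.7), and in the shared blood cluster it was 4.73 (2.27 to 11.4), on 66 and 8 UMIs.

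A *TRIM10* UMI was found in 4.40% (116 of 2635), 0.844% (12 of 1421) and 2.59% (52 of 2005) of blood progenitor-like cells, at median depths of 17492, 17569 and 13946 UMIs. Somite-like cells had one in 0 of 2905, 0 of 3645 and 0 of 2618 cells at medians of 7309, 6323 and 7139 UMIs, where the exact upper limits are 0.127%, 0.101% and 0.141%. Since the gene was found in that group alone in the E19 libraries, the equal-share ratio equals the within-group ratio of 5.87. The larger blood progenitor-like share of UMIs in E19 HSTS gave 24.1% of the difference in CPM. In blood clusters 7 and 10 there were 53 and 7 UMIs and 44 and 4 UMIs in the E19 libraries, with ratios of 4.29 (1.95 to 11.2) and 5.96 (2.17 to 22.8).

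Erythroid genes were higher in E19 HSTS along with *TRIM10* over the libraries, but less so at equal shares. Of 14 erythroid and TRIM genes read, 7 were at least 2-fold higher in E19 HSTS and 0 in E19 HS, with a median log2 ratio of 0.97. At equal shares, 0 were past 2-fold and the median was 0.37. This list shares 8 of its 19 genes with the markers that named the group. *EPB42*, a protein of the red cell membrane, had 8.77, 2.92 and 3.52 CPM, a ratio of 3.00 over all kept cells and 1.92 at equal shares. Between the same scales, *HEMGN*, an erythroid nuclear protein, went from 2.91 to 1.86 and *ALAS2*, the first enzyme of haem synthesis in red cells, from 2.77 to 1.78. The equal-share ratio of *TRIM10*, 5.87, lay above these, and its lower counting limit was 3.25. *TRIM39*, a TRIM gene 2 places from it in the gene order, had 0.613, 0.766 and 0.521 CPM, a ratio of 0.799 (0.556 to 1.15).

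**Figure D2:**
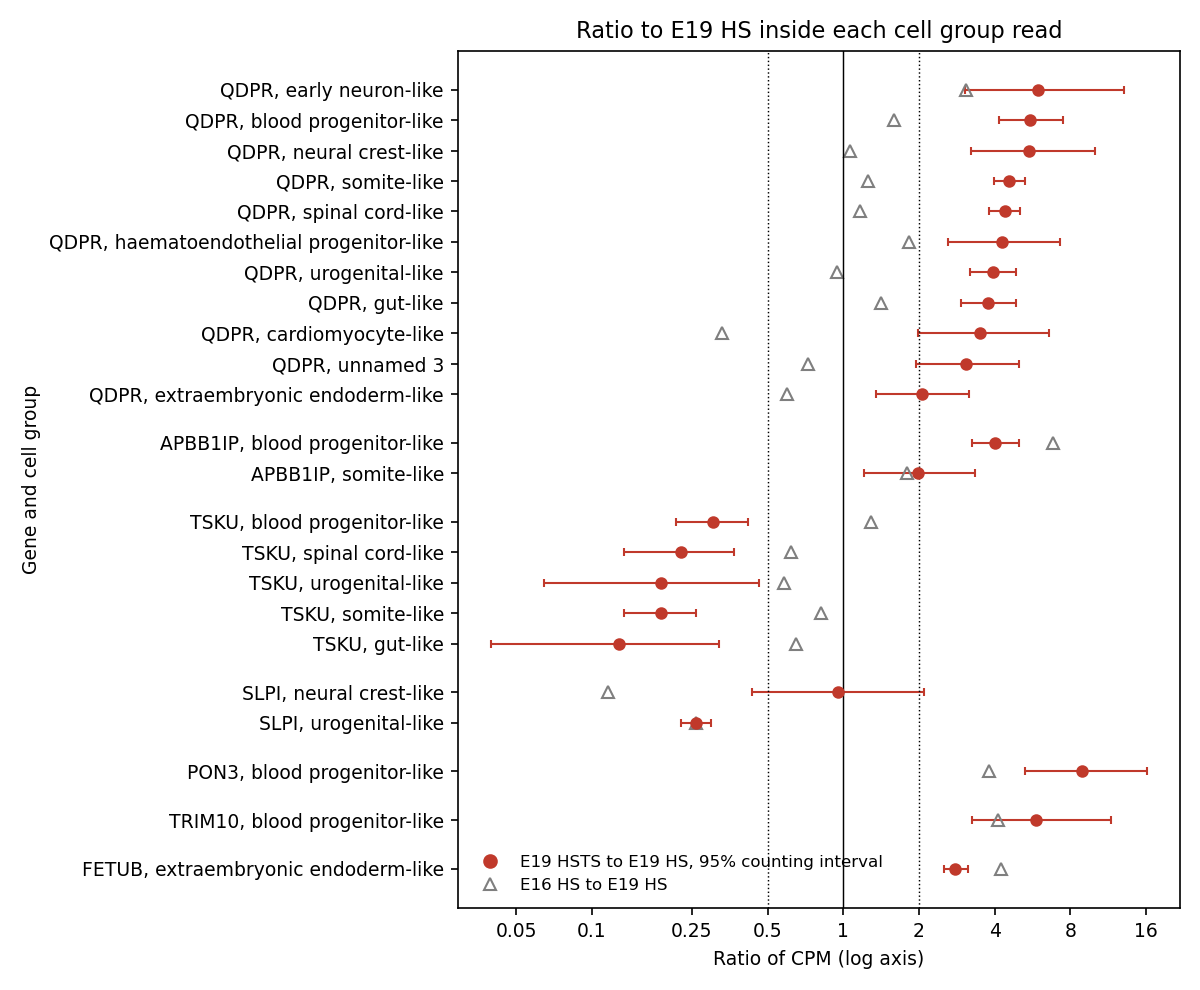
Ratio to E19 HS inside each cell group read, on a log axis, with 1 row per gene and group. Filled points are E19 HSTS with their 95% counting interval, open triangles E16 HS, and dotted lines mark 2-fold. All 11 *QDPR* rows lie above 2 and all 5 *TSKU* rows below 0.5, while *APBB1IP*, *PON3* and *TRIM10* pass 2 in blood progenitor-like cells.

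*TSKU* (ENSOARG00020007221), the first of the secreted proteins, was measured at 1.47 CPM in E19 HSTS (146 UMIs), 7.24 CPM in E19 HS (642 UMIs) and 7.19 CPM in E16 HS (814 UMIs). E19 HSTS was low, and the HS libraries of both days had nearly the same level. E19 HS was 4.93-fold higher than E19 HSTS (4.12 to 5.95), and the E16 ratio was 0.994 (0.895 to 1.10). Single UMIs made up these sums, with at most 1, 2 and 3 per cell. After thinning, 0.482% of cells in E19 HSTS held a *TSKU* UMI, against 2.38% in E19 HS and 2.08% in E16 HS, and without thinning 1.52%, 5.76% and 6.66% did.

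All 5 groups in which *TSKU* could be read were at least 2-fold higher in E19 HS, where 0.212% of the 9903 genes read in at least 3 groups were so in every group read. Group by group, the genes that much higher in E19 HS were 1.76% in somite-like, 1.7% in spinal cord-like, 1.76% in urogenital-like, 1.5% in gut-like and 3.2% in blood progenitor-like cells. In somite-like cells it had 1.99 CPM in E19 HSTS, 10.5 CPM in E19 HS and 8.61 CPM in E16 HS, or 5.29-fold higher in E19 HS (3.85 to 7.43). Spinal cord-like cells had 1.53, 6.74 and 4.19 CPM, 4.40-fold higher (2.73 to 7.45), and urogenital-like cells 1.11, 5.88 and 3.41 CPM, 5.29-fold higher (2.16 to 15.5). Gut-like cells had 5, 46 and 69 UMIs, 7.79-fold higher in E19 HS (3.11 to 25.1), and blood progenitor-like cells 59, 110 and 154 UMIs, 3.31-fold higher (2.39 to 4.62). In the shared blood cluster *TSKU* had 19 and 55 UMIs, 5.05-fold higher in E19 HS, or an E19 ratio of 0.198 (0.111 to 0.339). The intervals of the 5 groups overlapped, and whether the size of the difference varied between these groups was not tested. Groups under the limit leaned the same way or held too few UMIs, with 2 and 13 UMIs in early neuron-like, 0 and 11 in haematoendothelial progenitor-like, 1 and 8 in neural crest-like and 1 and 1 in cardiomyocyte-like cells of the E19 libraries. Among genes read, 2.6% were at least 2-fold higher in E19 HS in the haematoendothelial progenitor-like group and 2.2% in the unnamed cells led by *H1-1*, where *TSKU* had 1 and 7 UMIs.

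The shares of the groups hardly entered the *TSKU* difference. At equal shares E19 HS was 4.65-fold higher (3.83 to 5.64), and 92.7% of the difference in CPM lay within groups. The highest *TSKU* levels among named groups were in caudal progenitor-like cells, whose leading genes include *CDX2* and *FGF8*, with 9.47 CPM in E19 HSTS (2 UMIs), 31.8 CPM in E19 HS (21 UMIs) and 14.0 CPM in E16 HS (147 UMIs). Only 26 such cells were found in E19 HSTS against 91 in E19 HS, so the group was not read. These numbers depended on the clustering, with 34 and 114 cells at a finer resolution and 93 and 110 when the libraries were integrated by RPCA. The 10 leading genes of the group held 2 caudal progenitor markers and 2 of another list. Of 17 genes of small leucine-rich proteoglycans and secreted antagonists with enough UMIs, 0 were at least 2-fold higher in E19 HSTS and 2 in E19 HS, with a median log2 ratio of -0.30. These were *OGN*, osteoglycin, with 14, 66 and 11 UMIs and a ratio of 0.189 (0.0980 to 0.340), and *DKK1*, a WNT antagonist, with 19, 35 and 38 UMIs and a ratio of 0.484 (0.261 to 0.869). At equal shares *OGN* was at 0.202 and *DKK1* at 0.647, under 2-fold. In somite-like cells *DKK1* had 7 and 15 UMIs, a ratio of 0.513 (0.177 to 1.34). For *OGN*, unlike for *TSKU*, E16 HS lay as low as E19 HSTS.

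*SLPI* (ENSOARG00020012315) was measured at 3.18 CPM in E19 HSTS (317 UMIs), 11.7 CPM in E19 HS (1038 UMIs) and 2.94 CPM in E16 HS (333 UMIs). E19 HS stood alone as the high library. It was 3.67-fold higher than E19 HSTS (3.24 to 4.18) and 3.98-fold higher than E16 HS (3.51 to 4.51). Urogenital-like cells held 269, 979 and 307 of these UMIs, at 49.9, 192 and 49.8 CPM, so that E19 HS was 3.85-fold higher there (3.36 to 4.42). In that group 1.76% of 9154 genes were at least 2-fold higher in E19 HS. The leading genes of the group include the kidney genes *LHX1*, *CDH16* and *PTPRO* beside *C1QA*, an immune gene. Neural crest-like cells, the other group read, had 13.3 CPM in E19 HSTS and 13.9 CPM in E19 HS, both on 15 UMIs, a ratio of 0.956 (0.435 to 2.10), and 1.62 CPM in E16 HS. Groups under the limit went both ways. Extraembryonic endoderm-like cells had 17, 1 and 6 *SLPI* UMIs, higher in E19 HSTS by a ratio of 17.0 (2.66 to 709), and gut-like cells had 1, 13 and 6 UMIs, a ratio of 0.0909 (0.00214 to 0.605).

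At a finer resolution, most *SLPI* UMIs (75.1%, 90.2% and 84.7%) fell into 1 cluster of 243 cells, all of them inside the urogenital-like group. Its 10 leading genes were *C1QA*, *PTPRO*, *PTPRQ*, *ENPEP*, *MAGI2*, *SELENOM*, *GADD45A*, *TINAGL1*, *PARD3B* and *TCF21*. The first, *C1QA*, is a complement gene of macrophages, while *PTPRO*, *MAGI2* and *TCF21* are known from podocytes, the filter cells of the kidney. No fixed marker list fitted these cells and the cluster has no name. It held 34 cells of E19 HSTS (0.354% of the library, 0.245 to 0.494%), 72 of E19 HS (0.677%, 0.530 to 0.852%) and 137 of E16 HS (1.21%, 1.02 to 1.43%). *SLPI* was at 900 CPM in E19 HSTS (238 UMIs), 1887 CPM in E19 HS (936 UMIs) and 192 CPM in E16 HS (282 UMIs) in these cells. E19 HS was thus 2.10-fold higher than E19 HSTS (1.82 to 2.43) and 9.80-fold higher than E16 HS (8.57 to 11.2) within the cluster, on fewer than 50 cells in E19 HSTS. The remaining urogenital-like cells had 6.04, 9.34 and 5.32 CPM, a ratio of 0.647 (0.394 to 1.05). When groups were taken at this resolution, the equal-share E19 ratio moved from 0.291 to 0.503. In E19 HSTS, 1 cell held 129 of the 238 *SLPI* UMIs of the cluster, so its level there and both of these E19 comparisons rest largely on that cell. Both the share of these cells and their *SLPI* level were lower in E19 HSTS than in the other day 19 library.

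A few cells held most *SLPI* UMIs. In the unnamed cluster, 58.8%, 61.1% and 51.1% of cells held at least 1, at median depths of 7431, 6488 and 9107 UMIs, and the intervals of these shares overlapped. Blood progenitor-like cells, which should lack the gene, held one in 0.152%, 0.352% and 0.0499% of cells at median depths of 17492, 17569 and 13946 UMIs. The median cell of the unnamed cluster had 1, 1.5 and 1 UMIs, but the highest had 129, 130 and 30. In E19 HSTS the 129 UMIs of 1 cell were 40.7% of the library's *SLPI*, and 3 cells held at least 50% of it, against 7 cells in E19 HS and 14 in E16 HS. Without the top cell of each E19 library, an alternative added after seeing the data, E19 HS was 5.42-fold higher than E19 HSTS. Without the 10 top cells of each it was 5.26-fold higher. Of 5 genes of protease inhibitors and their proteases with enough UMIs, 0 were past 2-fold in either direction, with a median log2 ratio of -0.08.

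*FETUB* (ENSOARG00020000580) was measured at 12.9 CPM in E19 HSTS (1283 UMIs), 5.07 CPM in E19 HS (450 UMIs) and 6.56 CPM in E16 HS (743 UMIs). E19 HSTS was high, and E16 HS lay a little above E19 HS. The E19 ratio was 2.54 (2.28 to 2.83) and the E16 ratio 1.29 (1.15 to 1.46). Extraembryonic endoderm-like cells held 1247, 445 and 718 of these UMIs. The leading genes of that group, *AHSG*, *AFP*, *TTR* and *SERPINA1*, are made by yolk sac endoderm and by liver cells alike, and the name does not separate these sources.

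Within this group the order of the libraries changed. *FETUB* was at 902 CPM in E19 HSTS (113 cells), 322 CPM in E19 HS (117 cells) and 1362 CPM in E16 HS (58 cells). The E19 ratio was 2.80 (2.51 to 3.12) and the E16 ratio 4.23 (3.75 to 4.77). In the group, 6.2% of 5609 genes were at least 2-fold higher in E19 HSTS. The group was 1.17%, 1.10% and 0.512% of cells, which placed E16 HS between the E19 libraries over all cells although it was highest in the group. At equal shares the E19 ratio was 2.84 (2.55 to 3.17), a little above that over all kept cells.

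The *FETUB* difference rested on a small number of cells with very many UMIs. A UMI was found in 80.5% (72.0 to 87.4%), 74.4% (65.5 to 82.0%) and 77.6% (64.7 to 87.5%) of the extraembryonic endoderm-like cells, at median depths of 13021, 12052 and 7697 UMIs. These shares overlapped. Blood progenitor-like cells, which should lack the gene, held one in 0.417%, 0% (0 of 1421, exact upper limit 0.259%) and 0.200% of cells, at median depths of 17492, 17569 and 13946 UMIs. The median cell had 3, 2 and 4 UMIs, or 274, 181 and 502 CPM, while the highest had 272, 24 and 141 UMIs. In E19 HSTS 4 cells held at least 50% of all *FETUB* UMIs, against 15 in E19 HS and 7 in E16 HS. Without the top cell of each E19 library the ratio over all kept cells was 2.11, and without the 10 top cells it was 1.46, both alternatives added after seeing the data. Averaged over cells instead of UMIs, at equal shares, it was 1.68, and with the 8% of cells of highest doublet score taken out it was 1.99 over the rest. Whether these cells are doublets was not tested.

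**Figure D3:**
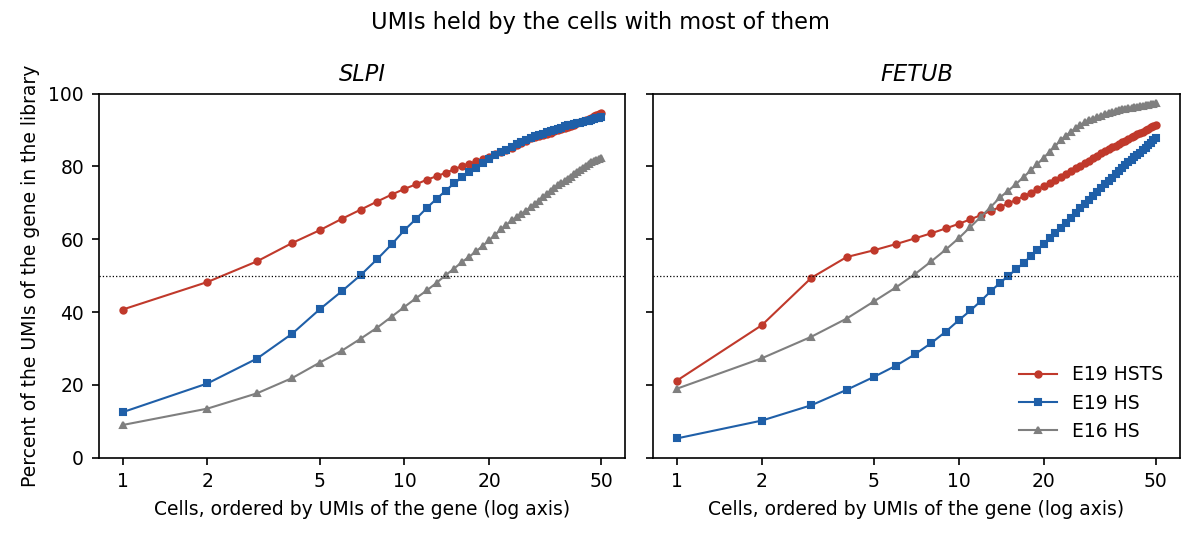
Percent of the UMIs of *SLPI* and *FETUB* in each library held by the 1 to 50 cells with most of them, with the number of cells on a log axis. In E19 HSTS the top cell held 40.7% of the *SLPI* and 21.2% of the *FETUB* UMIs, against 12.5% and 5.33% in E19 HS.

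Over all kept cells, the other plasma protein genes on the fixed list stayed under 2-fold between the E19 libraries. Of 10 cystatin family and plasma protein genes with enough UMIs, 0 were past 2-fold in either direction, and the median log2 ratio was -0.01. At equal shares 0 were past 2-fold as well, but single groups differed. *AHSG*, the fetuin-A gene that lies next to *FETUB*, had 287 CPM in E19 HSTS, 273 CPM in E19 HS and 215 CPM in E16 HS, a ratio of 1.05 (1.03 to 1.07). Of the 9 groups in which *AHSG* was read, 5 were at least 2-fold higher in E19 HSTS and 0 in E19 HS. For *TTR*, 3 of 6 groups were that much higher in E19 HSTS and 2 in E19 HS. *KNG1*, the kininogen gene, second on the other side, had 5.31, 5.66 and 1.34 CPM, a ratio of 0.939 (0.829 to 1.06).

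**Figure D4:**
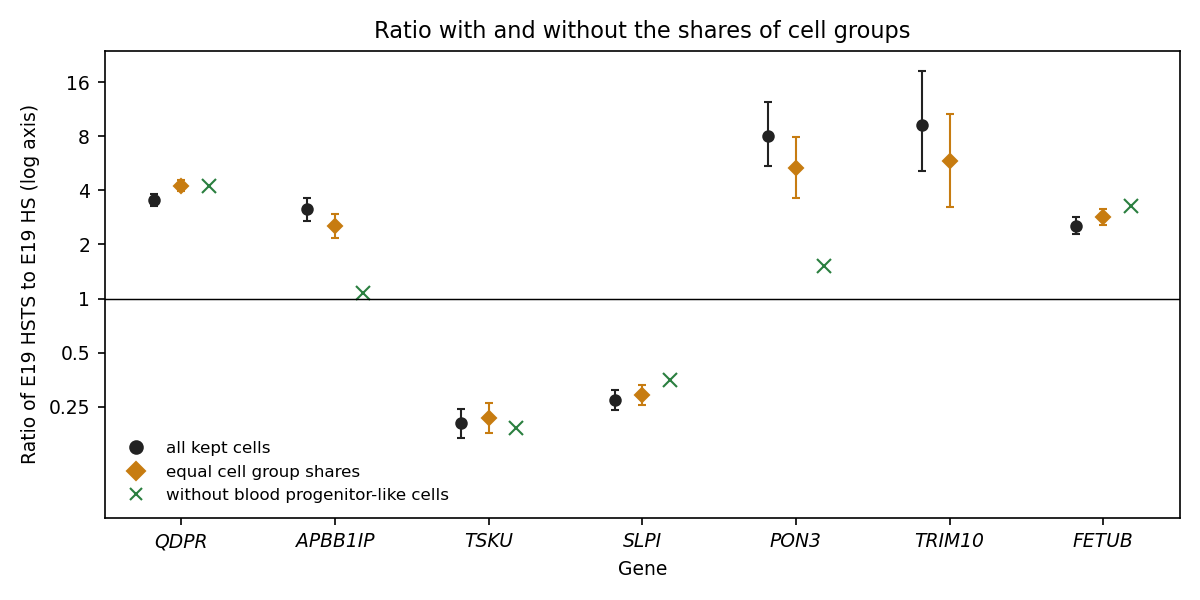
E19 ratio, E19 HSTS over E19 HS, for each gene on a log axis, over all kept cells (circles), with both libraries weighted by the UMI shares that the groups had in E19 HS (diamonds) and without blood progenitor-like cells (crosses). Bars are 95% counting intervals. *TRIM10* has no cross because it had 0 UMIs outside those cells in both E19 libraries, and the crosses of *APBB1IP* and *PON3* lie at 1.08 and 1.52.

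Set side by side at equal shares of the 15 groups, the 7 genes had the same direction as over all kept cells and were past 2-fold, where 3.43% of 13984 genes were at least 2-fold higher in E19 HSTS and 1.78% at least 2-fold lower. The shares of UMIs in each group gave 24.1% of the difference for *TRIM10*, 21.2% for *PON3* and 13.6% for *APBB1IP*, with 7.30% for *TSKU* and 5.51% for *SLPI*. Past 2-fold did not hold at equal shares for *SLPI* at the finer resolution (1.99-fold higher in E19 HS) or for *FETUB* as a mean over cells (1.68). For *QDPR* and *FETUB* the shares went the other way. The median log2 ratios of the partner lists other than the erythroid one, -0.30 to -0.01 over all kept cells, were 0.07 to 0.21 at equal shares, so their sign is not firm. *QDPR* and *TSKU* were the members read in more than 2 groups and past 2-fold in all of them. *PON3* and *TRIM10* could be read in blood progenitor-like cells alone and differed there. *APBB1IP* was past 2-fold in the same cells and close to it in somite-like cells, and under 6 of the alternatives a second group passed. *SLPI* and *FETUB* were past 2-fold within a single group each, and in 0 groups for *SLPI* at the finer resolution and for *FETUB* without the cells of highest doublet score. At that resolution the unnamed cluster with most *SLPI* UMIs had 34 cells of E19 HSTS and was therefore not read. E19 HS was 2.10-fold higher in it (1.82 to 2.43), with 129 of the 238 UMIs of E19 HSTS in 1 cell.

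Of the genes next to the members, most of those with enough UMIs stayed under 2-fold. *SLPI* had no such neighbour, and *TRIM10* had *TRIM39* alone. For 28 neighbours, up to 2 on each side in the gene order of the RefSeq assembly ARS-UI_Ramb_v3.0, 18 had enough UMIs, 0 were at least 2-fold higher in E19 HSTS and 1 was at least 2-fold higher in E19 HS, with a median log2 ratio of 0.02. The 1 was *LRRC32* beside *TSKU*, on 12, 22 and 75 UMIs, with a ratio of 0.486 (0.219 to 1.03). *CAPN5*, on the other side of *TSKU*, had 1.37, 0.811 and 1.17 CPM, a ratio of 1.68 (1.26 to 2.27). *LDB2* and *BLOC1S4* near *QDPR* had ratios of 0.813 (0.651 to 1.02) and 1.03 (0.533 to 2.02), and *PDSS1* and *CCNY* beside *APBB1IP* had 1.03 (0.916 to 1.16) and 0.825 (0.767 to 0.888).

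The genes with the most similar pattern over 36 points, each a cell group with at least 50 cells in 1 library, were found among 7544 genes by Pearson's r of log2(CPM + 1). The points share libraries and depth, so r is a description. For *FETUB* they were *AHSG* (r = 0.986), *FGG* (0.977) and *SERPINA1* (0.972), all plasma protein genes of the endoderm group. For *TRIM10* they were *SLC4A1* (0.887), *TMEM14C* (0.868) and *RHAG* (0.860), genes of red cell membranes and haem synthesis. *RHAG*, a subunit of the Rh complex, had 16.7, 2.04 and 4.21 CPM, a ratio of 8.17 over all kept cells, and 1633, 179 and 463 UMIs within blood progenitor-like cells, a ratio of 5.14 (4.40 to 6.03). That is close to the 5.87 of *TRIM10*. For *SLPI* they were *ENPEP* (0.814), *CLDN19* (0.788) and *PTPRQ* (0.758), all with E19 ratios between 0.925 and 1.29. For *PON3* they were *FHL2* (0.720), *TMOD1* (0.718) and *MYL3* (0.688), and for *APBB1IP* *GPX1* (0.770), *EIF1* (0.769) and *TUBB6* (0.768). For *QDPR* they were *MRPS27* (0.826), *HNRNPH2* (0.778) and *ODF2L* (0.761), the last at 27.3, 18.7 and 20.2 CPM. *TSKU* had no gene above 0.665, that of *COA8*, followed by *AKR1A1* (0.634) and *GAPDH* (0.625), a glycolytic gene with many near-identical copies, at 4.57, 1477 and 1314 CPM in the 3 libraries. *GAPDH* was nearly missing from E19 HSTS in each cell group, for example with 128 and 44943 UMIs in somite-like, 87 and 35181 in spinal cord-like and 87 and 10318 in blood progenitor-like cells of the E19 libraries. It thus set E19 HSTS apart in all groups, as *QDPR* and *TSKU* did in those read, and what these patterns share was not tested.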

How the data were processed

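The authors aligned the reads to Ovis_aries_genome_v1.0 and counted UMIs with Cell Ranger 6.1.2, and they deposited 1 matrix of raw counts per library, on which everything here rests. Cells were filtered as stated in the report. Clusters were made in R 4.3.3 with Seurat 5.3.0 on the 3 libraries together: counts scaled to 10000 per cell on a log scale, 2000 variable genes without the 7 members, the mitochondrial share regressed out, 25 components, resolution 0.25. Harmony, used by the authors, was not used here. A cluster took the name of the marker list, of 20, that led among its 10 top genes, with ties decided by the mean z of the list, and at least 3 markers detected. Clusters of one name were merged. Sums, exact Poisson, binomial and conditional ratio intervals, and the weighting by each group's share of UMIs were computed in Python 3.11.15 with scipy 1.17.1, and checked on simulated counts. Equal-share intervals are approximate, on the log scale. In the alternative without a minimum, counts under 3 were set to 3. Scrublet (scanpy 1.11.5) marked 193 cells in E19 HSTS, 0 in E19 HS, where it did not work, and 198 in E16 HS. Doublets were not removed.

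The 7 members and the lists were chosen with earlier results of these data known. Other genes named are, for each member, the 3 most alike over cell groups, the 2 nearest on each side, and those of 7 partner lists. Of the partner lists, genes past 2-fold with at least 500 UMIs in the higher E19 library were to be named, up to 4 per list (1 such gene is not reported here), and *GCH1*, *TH*, *FYB1*, *OGN*, *DKK1*, *PON1*, *PON2*, *TRIM39*, *AHSG* and *KNG1* were named beside this rule, some as neighbours and the others after their values were seen. No paired fit was possible, because each group has 1 library. Gene order came from RefSeq, ARS-UI_Ramb_v3.0, another build than the files', so no coordinates are given. All 7 members matched it.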

Additional observations from a re-analysis of the deposited data

How the results depend on the processing

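Leaving out a library was not possible with 1 per group, and depth limits *PON3* and *TRIM10* most, with 28 and 12 UMIs in E19 HS. No paired analysis was possible because each group has 1 library. No alternative turned the direction of a ratio, and 170 values stayed within their counting interval or within 1.5 times of the count of groups, while 55 moved. The causes were not tested unless the setting itself shows them. *TRIM10* has no ratio without blood progenitor-like cells, since it had 0 UMIs there in both E19 libraries.

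Ratios of E19 HSTS to E19 HS over all kept cells moved as follows. With cells thinned to 3000 UMIs they were 3.96 for *QDPR*, 2.60 for *APBB1IP*, 0.195 for *SLPI*, 14.9 for *PON3* and 3.24 for *FETUB*. Without blood progenitor-like cells they were 4.21 for *QDPR*, 1.08 for *APBB1IP*, 0.353 for *SLPI*, 1.52 for *PON3* and 3.29 for *FETUB*. With all deposited barcodes *SLPI* was at 0.362 and *FETUB* at 2.85. *FETUB* was at 2.90 with a stricter cell filter (500 genes at the least, mitochondrial share below 5%), and at 1.99 with the 8% of cells of highest doublet score taken out. Without the cell with most UMIs of the gene *SLPI* was at 0.184 and *FETUB* at 2.11, and without the 10 such cells at 0.190 and 1.46, both added after seeing the data.

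Ratios at equal group shares moved for 4 genes. *APBB1IP* was at 2.14 after thinning and 3.23 with the shares of E19 HSTS. *SLPI* was at 0.335 with the stricter cell filter, 0.214 after thinning, 0.503 at resolution 1.0, 0.386 with groups from marker UMIs, 0.247 as a mean over cells and 0.198 without its top cell. *PON3* was at 8.33 after thinning, on the same few UMIs, and 3.27 as a mean over cells. *FETUB* was at 3.40 with the stricter filter, 2.01 without the highest doublet scores, 3.19 with groups from marker UMIs, 1.68 as a mean over cells and 2.38 without its top cell.

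The number of groups past 2-fold for *APBB1IP* became 2 with the stricter filter, without the highest doublet scores, with TMM scaling in edgeR 4.0.16, with RPCA integration, with the E19 libraries clustered alone and with groups from marker UMIs, and 3 with single clusters, a setting added after seeing the data. Single clusters gave 2 for *PON3* and 2 for *TRIM10*. For *TSKU* it was 3 after thinning, 8 at resolution 1.0 and with RPCA, and 9 with no minimum of UMIs. For *SLPI* it was 0 at resolution 1.0, where the unnamed cluster with most of its UMIs had too few cells to be read. It was 3 with groups from marker UMIs, with at least 10 UMIs and with no minimum. For *FETUB* it was 0 without the highest doublet scores, 2 with RPCA and with the E19 libraries clustered alone, 3 with at least 10 UMIs and 4 with no minimum. For *QDPR* it ran from 9 to 16 as the number of groups changed.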

Other observations

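The 7 genes were also counted in the barcodes left out for having under 1000 UMIs. There were 917, 1045 and 708 of them in the order used above, with 651032, 753111 and 519482 UMIs. *QDPR* was at 43.0 CPM (28.6 to 62.2) in those of E19 HSTS, 12.0 CPM (5.46 to 22.7) in E19 HS and 3.85 CPM (0.466 to 13.9) in E16 HS. The E19 order was the same as in the kept cells. *SLPI* had 13 UMIs in E19 HSTS (10.6 to 34.1 CPM) and 15 UMIs in E19 HS (11.2 to 32.9 CPM), so these intervals overlapped where those of the kept cells did not. E16 HS had 0 *SLPI* UMIs in these barcodes, with an upper limit of 5.77 CPM. *TRIM10* had 0 UMIs in all 3 libraries.

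Erythroid RNA outside the blood group differed between the E19 libraries. *HEMGN* had 53 UMIs in urogenital-like cells of E19 HSTS and 0 in E19 HS, and *ALAS2* had 119 and 7 there, 47 and 16 in spinal cord-like cells and 21 and 6 in gut-like cells. In haematoendothelial progenitor-like cells the *ALAS2* counts lay the other way, at 14 and 33 UMIs. The ratio there was 0.597 (0.295 to 1.15), an interval that contains 1. These UMIs were not removed from any value above.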
